A study of Homo sapiens with 12 samples.

Results

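Sorafenib, an oral inhibitor of RAF kinases and several growth factor receptor kinases given for advanced liver cancer, was compared with its vehicle on the heavy polysomes of HepG2 cells. HepG2 is an established human hepatocellular carcinoma line, recorded as WT for genotype. Cells received 10 µM sorafenib or dimethyl sulfoxide (DMSO) for 12 h, and every dish of both groups was given 200 µg/ml cycloheximide for 5 min before lysis, which holds ribosomes on their mRNAs. Lysates, usually from 2 dishes per condition, were spread on sucrose gradients of 10 to 50%, and the polysome peaks were pooled as the heavily translated fraction. The comparison takes the 3 sorafenib and the 3 vehicle libraries of that fraction, 6 of the 12 libraries of the series, and covers all genes. The other 6 libraries hold the light fraction (free complexes, ribosomal subunits and single ribosomes) of the same groups and enter only where named.

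Each eIF2 kinase responds to a different stress by phosphorylating initiation factor eIF2, which lowers general initiation while letting mRNAs such as ATF4 through, and ATF4 and its partners then switch on genes for amino acid supply. A separate arm, mTORC1, controls mRNAs that begin with a run of pyrimidines, above all those of ribosomal proteins. The number of ribosomes an mRNA can carry also depends on the length of its coding region, so a polysome library measures how much of each mRNA is loaded with several ribosomes. No library of unfractionated RNA was used here, so altered loading and an altered amount of an mRNA cannot be told apart.

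The library totals were between 4769383 counts (vehicle replicate 2) and 13336689 counts (sorafenib replicate 2). Of 57353 rows, 13868 passed the filter on low counts, and rows that did not pass held at most 0.425% of any library. Log2 values over tested genes correlated at 0.957 to 0.967 among vehicle libraries, 0.976 to 0.988 among sorafenib libraries and 0.863 to 0.901 between the groups. All 12 hepatocyte markers were present, at a summed 9414 to 16651 CPM (counts per 1000000 of the library total, without TMM for the marker sums here) with vehicle and 35827 to 42215 CPM with sorafenib. Endothelial markers summed to at most 1.68 CPM with vehicle and 2.30 CPM with sorafenib, and erythroid markers to at most 3.65 and 0.899 CPM. The 8 immune markers summed to 456 to 660 CPM with vehicle and 364 to 549 CPM with sorafenib, with NKG7 at 0 and 5 of 8 under 1 CPM in every library. The 5 cholangiocyte markers summed to 467 to 830 CPM with vehicle and 901 to 1076 CPM with sorafenib, and the 8 fibroblast and stellate cell markers to 15.5 to 21.8 and 35.3 to 38.7 CPM, 5 of the 8 under 1 CPM throughout. The labels name triplicate experiments without saying whether they were separate cultures, so p-values measure the spread between these libraries, which may be technical.

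Sorafenib changed the polysome RNA broadly. At an adjusted p under 0.05 (edgeR's quasi-likelihood test with Benjamini-Hochberg adjustment over all 13868 genes, used for every adjusted p given here), 4113 genes were higher with sorafenib, 29.7% of those tested, and 3385 were lower, 24.4%. Together 54.1% passed, so the counts of every list below have to be read against 29.7% rising and 24.4% falling. This holds also where these shares are not repeated, and some lists lie near them. Of the rises, 2904 were at least 2-fold and 712 at least 4-fold. Of the falls, 2019 were at least 2-fold and 335 at least 4-fold. The CPM ranges of the groups did not overlap for 8458 genes, 61% of those tested. Values are shares of a library, so fewer molecules of one mRNA and more of all others cannot be told apart; the median log2 fold change over all genes was 0.02. Upper quartile scaling moved that median to -0.22 and gave 3302 rises and 4592 falls, and a fit with all 12 libraries moved it to -0.26 and gave 3130 and 4306, so the share of calls that were rises was 54.9% here, 41.8% and 42.1% there. Those shifts apply to all genes alike, and group medians below are given on the scale of the 6 libraries.

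The largest changes are given for genes that RefSeq matched as protein-coding. SLC44A2, a choline transporter-like protein of the plasma membrane and mitochondria, stood at 2.94, 2.15 and 3.72 CPM in vehicle replicates 1, 2 and 3 and 73.6, 37.9 and 63.9 CPM in sorafenib replicates 1, 2 and 3 (log2 fold change 4.26 ± 0.31 SE, adjusted p = 2.75e-06). INHBE, the liver's activin E subunit, stood at 3.13, 2.37 and 3.43 CPM with vehicle and 68.0, 25.2 and 81.5 CPM with sorafenib (log2 fold change 4.25 ± 0.41 SE, adjusted p = 6.64e-06). CCN1, a matrix-associated growth regulator, stood at 3.77, 4.52 and 14.8 and 208, 84.3 and 155 CPM (log2 fold change 4.23 ± 0.48 SE, adjusted p = 1.82e-05). In all of these sorafenib replicate 2 was the lowest treated library. CES1, the main hepatic carboxylesterase, differed in that respect, with 7.18, 9.68 and 2.45 CPM on vehicle and 96.9, 113 and 100.1 CPM on sorafenib (log2 fold change 4.07 ± 0.37 SE, adjusted p = 4.64e-06). SLC25A25, a calcium-regulated ATP-Mg/phosphate carrier of mitochondria, stood at 5.43, 5.38 and 7.25 and 129, 63.0 and 114 CPM (log2 fold change 4.06 ± 0.30 SE, adjusted p = 2.75e-06). The next rises were ELF3, an epithelial transcription factor (3.91), ARRDC3, an arrestin-domain adaptor (3.89), TUFT1 (3.86), GADD45B, a stress-induced growth arrest gene (3.73), TNFAIP3, the A20 brake on NF-kB (3.70), SLC3A2, the heavy chain shared by several amino acid transporters (3.68), and JUN, an AP-1 subunit (3.63), all as log2 fold changes.

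Among the falls, EPOP, a partner of Polycomb and elongin complexes, stood at 358, 358 and 297 CPM with vehicle and 32.4, 36.7 and 26.7 CPM with sorafenib (log2 fold change -3.40 ± 0.21 SE, adjusted p = 2.75e-06). ETAA1, an activator of the ATR kinase at stalled replication forks, stood at 34.7, 26.2 and 31.4 and 3.72, 1.62 and 4.54 CPM (log2 fold change -3.24 ± 0.33 SE, adjusted p = 8.66e-06). FAM217B stood at 175, 173 and 101 and 19.6, 31.9 and 22.2 CPM (log2 fold change -2.60 ± 0.27 SE, adjusted p = 9.41e-06). The groups did not overlap for these genes, as the ranking required. The mitochondrially encoded complex I subunits MT-ND6 (-2.74), MT-ND2 (-2.62) and MT-ND5 (-2.37) were also among the 12 largest falls. MT-CYB, at -2.78, fell as far but had no match in the RefSeq table and was not ranked, like the other unmatched rows. NARF, a nuclear prelamin-binding protein (-2.45), PURB, a single-stranded nucleic acid-binding protein (-2.37), and PDCD5, an apoptosis-linked protein (-2.37), were ranked among the 12 largest falls. RAB42 (-2.35), FADD, the adaptor of death receptors (-2.34), and RIPPLY3 (-2.56) were ranked there too. The vehicle libraries of RIPPLY3 themselves ranged from 20.6 to 80.0 CPM.

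**Figure D1:**
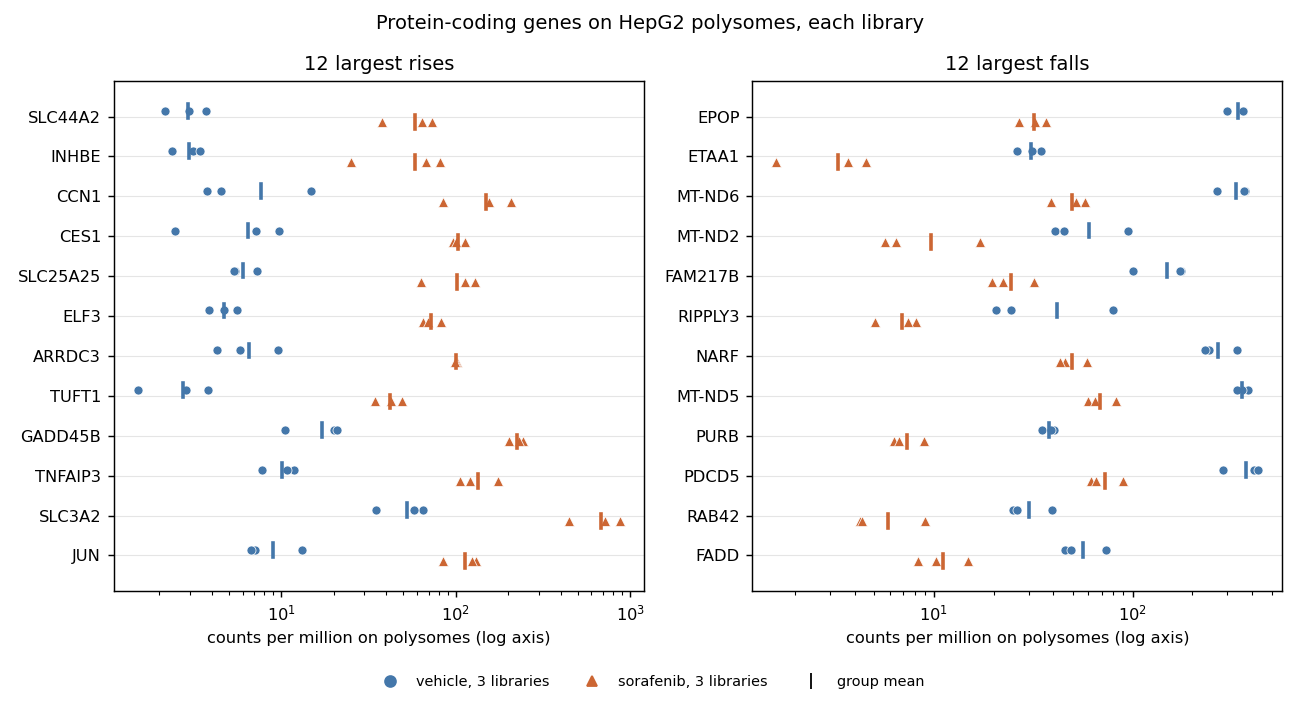
CPM on polysomes (log axis) of the 12 genes with the largest rises (left) and the largest falls (right), among genes that RefSeq matched as protein-coding (MT-CYB was not matched), past the test at 4 or more in mean log2 CPM. Circles are the 3 vehicle libraries, triangles the 3 sorafenib libraries and vertical ticks the group means. Groups that are apart were a condition for a gene to be drawn, as for SLC44A2 at 2.15 to 3.72 CPM against 37.9 to 73.6 CPM.

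The 5 largest rises and the 5 largest falls of that ranking, which leaves out MT-CYB, were also tested for a difference between the polysome and the light fraction, in a fit of all 12 libraries. For 7 of the 10 the difference did not pass. The light libraries are shallower and less alike than the polysome libraries, and the SE of the difference was as high as 0.705 (CCN1). A difference that did not pass therefore does not mean an equal change in both fractions. SLC25A25 rose more on polysomes, with a polysome effect minus light effect of 2.62 on the log2 scale (SE 0.480, adjusted p = 7.61e-04). INHBE also rose more on polysomes, by 1.75 (SE 0.630), at an adjusted p of 0.04998 that lay just under the threshold. FAM217B fell more on polysomes, with a difference of -1.42 (SE 0.370, adjusted p = 0.00931). EPOP fell in both fractions, with a light effect of -3.64 (adjusted p = 2.83e-06) and a difference of 0.02 (SE 0.382). The 10 genes were chosen for their size on polysomes, which is 1 side of this difference.

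Motifs of the ATF4 pathway mark where amino acid genes can be switched on. The C/EBP-ATF response element (CARE) was searched as TGATGNAA on both strands in RefSeq promoters of GRCh38.p14, from 250 bases before to 50 after each transcription start. It was present in 3.62% of all 35116 promoters and in 2.74% of 9461 tested protein-coding genes with a promoter in the table. Among members with a promoter it was present in 5 of 14 cytosolic tRNA synthetases, 5 of 15 amino acid transporters, 4 of 17 stress response effectors and 3 of 13 serine and one-carbon genes. Over all tested protein-coding genes with a promoter the share was 3.19% of risers and 2.41% of fallers. PHGDH, PCK2, MTHFD1, VARS and SARS, which rose, were not among the members with a match, and of the 5 transporters with a match 4 rose. Whether a match and a rise go together was not tested. The windows below were picked among genes with a match that rose. Their genes carry the amino acid results that follow, apart from CEBPG, a stress response list member. They are written 5′ to 3′ along the strand of the gene, with the match in capitals (TTGCATCA and TTACATCA are the element read on the other strand). They are ASNS at chr7:97872433-97872512 (minus strand), AARS at chr16:70289650-70289729 (minus), CEBPG at chr19:33374035-33374112 (plus), SLC1A5 at chr19:46784868-46784947 (minus), NARS at chr18:57621805-57621832 (minus), TARS at chr5:33440957-33440984 (plus) and SLC3A2 at chr11:62881726-62881748 (plus). A match is a description of the letters and not evidence of binding.
ASNS: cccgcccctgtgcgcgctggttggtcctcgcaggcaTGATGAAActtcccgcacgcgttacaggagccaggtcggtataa
AARS: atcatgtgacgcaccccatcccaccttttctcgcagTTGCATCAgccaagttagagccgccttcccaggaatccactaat
CEBPG: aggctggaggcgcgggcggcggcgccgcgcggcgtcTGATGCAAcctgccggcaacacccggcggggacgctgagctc
SLC1A5: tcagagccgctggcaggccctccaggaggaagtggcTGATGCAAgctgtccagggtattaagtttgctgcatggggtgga
NARS: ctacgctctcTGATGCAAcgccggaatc
TARS: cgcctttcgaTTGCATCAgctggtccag
SLC3A2: gcaggactccTTACATCAgctcc

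The stress sensors and their effectors were mostly higher on polysomes, while ATF4 itself was level. Of 14 eIF2 kinases and stress sensors tested, 8 rose and none fell. These included the ER membrane sensors ATF6 (1.85) and ERN1, the IRE1 kinase and nuclease (1.29), and EIF2AK2, the double-stranded RNA-dependent kinase (0.91). EIF2AK3, the PERK kinase, did not pass (log2 fold change 0.36 ± 0.24 SE, adjusted p = 0.211). ATF4 stood at 560.1, 455 and 445 CPM with vehicle and 556, 449 and 472 CPM with sorafenib (log2 fold change 0.02 ± 0.20 SE, adjusted p = 0.950), groups that overlap, and its sign turned under other scalings and in part of the fits with 1 library left out. Its relative ATF5 fell (-1.02).

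Of 18 integrated stress response factors and effectors tested, out of 21 listed, 14 rose and 1 fell, with a median log2 fold change of 1.58. DDIT3, the CHOP transcription factor, stood at 26.1, 15.9 and 12.4 CPM with vehicle and 104, 75.5 and 119 CPM with sorafenib (log2 fold change 2.44 ± 0.29 SE, adjusted p = 2.37e-05). PPP1R15A, the GADD34 subunit that removes the phosphate from eIF2, stood at 27.6, 32.1 and 53.1 and 335, 184 and 216 CPM (log2 fold change 2.70 ± 0.29 SE, adjusted p = 1.44e-05). ATF3 stood at 1.38, 1.08 and 2.94 and 20.2, 8.73 and 19.8 CPM (log2 fold change 3.09 ± 0.42 SE, adjusted p = 7.29e-05). All of these groups were apart, and again sorafenib replicate 2 was the lowest treated library. GDF15, a secreted stress hormone, stood at 99.4, 104 and 134 and 884, 321 and 745 CPM (log2 fold change 2.53 ± 0.32 SE, adjusted p = 4.18e-05). DDIT4, which restrains mTORC1, stood at 21.2, 23.2 and 27.3 and 134, 70.7 and 129.9 CPM (log2 fold change 2.22 ± 0.26 SE, adjusted p = 2.41e-05). TRIB3, a pseudokinase induced by CHOP, stood at 204, 280.4 and 173 and 409, 130.2 and 401 CPM, with its second sorafenib library below all vehicle libraries and no pass (log2 fold change 0.52 ± 0.35 SE, adjusted p = 0.222). Without that library TRIB3 passed, at 0.91 (adjusted p = 0.00900), as it did with no filter on low counts, at 0.61 (adjusted p = 0.0345). FGF21, FGF19 and CHAC1 had too few counts to be tested.

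Most serine and one-carbon enzymes and tRNA synthetases rose, and amino acid transporters rose in part. PHGDH, which commits glucose carbon to serine, stood at 38.2, 33.1 and 21.5 CPM with vehicle and 275, 232 and 291 CPM with sorafenib (log2 fold change 3.11 ± 0.24 SE, adjusted p = 3.28e-06). PCK2, the mitochondrial PEP carboxykinase, stood at 63.6, 42.2 and 32.8 and 403, 327 and 411 CPM (log2 fold change 3.04 ± 0.26 SE, adjusted p = 3.28e-06). MTHFD1, a cytosolic folate enzyme, stood at 9.29, 10.1 and 8.53 and 69.6, 77.4 and 62.1 CPM (log2 fold change 2.91 ± 0.21 SE, adjusted p = 2.75e-06). The groups were apart for each of these, and 15 of 17 tested serine and one-carbon enzymes rose in all (median 1.56), while MAT2A, the S-adenosylmethionine synthetase, was the single member that fell (-1.55). ASNS, asparagine synthetase, stood at 8.56, 6.67 and 4.90 and 39.9, 17.9 and 58.2 CPM (log2 fold change 2.52 ± 0.38 SE, adjusted p = 1.49e-04).

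Transporters were more mixed, with 9 of 18 rising and 1 falling. SLC3A2 stood at 64.9, 34.9 and 57.8 CPM with vehicle and 873, 445 and 717 CPM with sorafenib (log2 fold change 3.68 ± 0.31 SE, adjusted p = 3.28e-06). Its partner SLC7A5, the light chain of the leucine exchanger, stood at 139, 246 and 210.3 and 248, 182 and 296 CPM and did not pass (log2 fold change 0.29 ± 0.24 SE, adjusted p = 0.337). SLC7A11, the light chain of the cystine exchanger that sorafenib is known to inhibit, rose (log2 fold change 1.78 ± 0.44 SE, adjusted p = 0.00408), though its second treated library, at 10.3 CPM, lay under the highest vehicle library, at 11.0 CPM. Both light chains pair with the same heavy chain. SLC1A5, a glutamine transporter, rose (1.39).

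The cytosolic aminoacyl-tRNA synthetases, which load amino acids onto tRNAs, rose almost as a block. Of 22 tested, 21 rose and none fell, with a median log2 fold change of 1.64. AARS, for alanine, stood at 23.4, 22.8 and 14.7 CPM with vehicle and 152, 105 and 182 CPM with sorafenib (log2 fold change 2.85 ± 0.26 SE, adjusted p = 5.56e-06). NARS, for asparagine, stood at 34.2, 23.5 and 32.0 and 169, 160.2 and 177 CPM (log2 fold change 2.49 ± 0.21 SE, adjusted p = 3.28e-06). TARS, for threonine, stood at 34.6, 14.8 and 23.6 and 159.6, 112 and 172 CPM (log2 fold change 2.58 ± 0.29 SE, adjusted p = 1.73e-05). These 3 carry the CARE letters printed above. VARS, for valine (2.29), and SARS, for serine (2.29), rose too. The mitochondrial synthetases moved in the same direction, 13 of 17 rising and none falling (median 0.96), with LARS2 at 2.12 and HARS2 at 1.93.

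**Figure D2:**
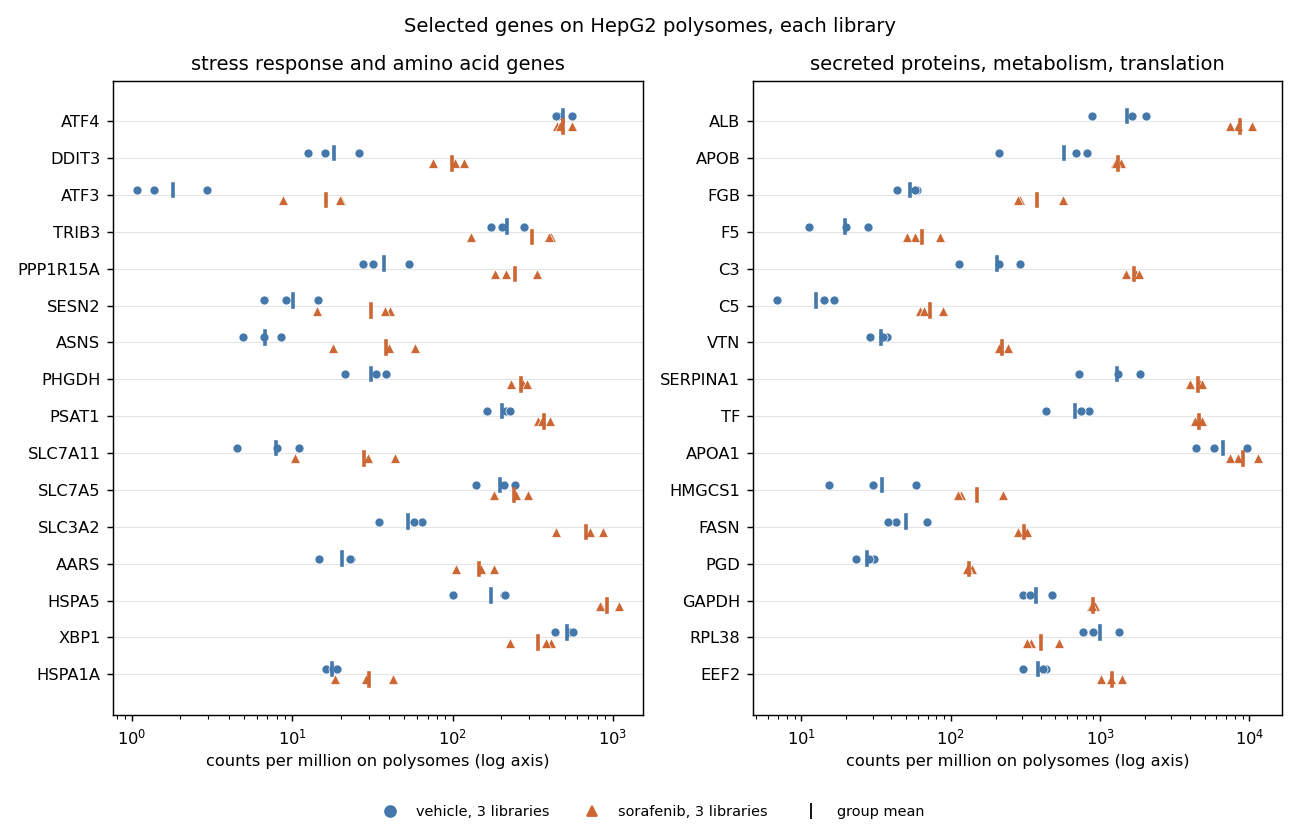
CPM on polysomes (log axis) in each library for 16 stress response and amino acid genes (left) and 16 genes of secretion, metabolism and translation (right). Circles are the 3 vehicle libraries, triangles the 3 sorafenib libraries and ticks the group means; ATF4 lies at 445 to 560 CPM in both groups while PHGDH moves from 21.5 to 38.2 CPM to 232 to 291 CPM.

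The mRNAs of the translation machinery itself split. Many of them begin with a terminal oligopyrimidine (TOP) tract, read here as a C at the first base followed by at least 4 pyrimidines. Such a start was present in 7.56% of tested protein-coding genes with a promoter, in 7.64% of risers and in 7.67% of fallers, and in 47 of 63 ribosomal protein genes. Of those 47, 1 rose and 17 fell, while of 7 initiation factors with such a start 6 rose and none fell. The starts below are shown because similar letters stood before mRNAs that rose, fell or did not pass, with the tract in capitals and 10 bases upstream of it, from RefSeq (GRCh38.p14). They are RPL38 at chr17:74203668-74203693 (plus strand), EEF1A1 at chr6:73521017-73521042 (minus), RPS21 at chr20:62387093-62387118 (plus), EEF2 at chr19:3985448-3985473 (minus), EIF4B at chr12:53006446-53006471 (plus) and RPS6 at chr9:19380221-19380246 (minus).
RPL38: aagtctcgttCTTTTTCgtccttttc
EEF1A1: cgtgaacgttCTTTTTCgcaacgggt
RPS21: ctagctgcttCCTTTCTCTCTCgcgc
EEF2: cgtcagcgttCTCTTCCgccgtcgtc
EIF4B: tcatccgggtCTTTTgcgttctcttt
RPS6: gaagttggccCTCTTTTCCgtggcgc

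RPL38 and EEF1A1 share the tract CTTTTTC. RPL38, a small protein of the large subunit, stood at 1340.2, 890.1 and 772 CPM with vehicle and 346, 532 and 325 CPM with sorafenib (log2 fold change -1.32 ± 0.26 SE, adjusted p = 0.00103). EEF1A1, which delivers charged tRNAs to the ribosome, stood at 7879, 5693 and 5654 and 17864, 17322 and 11819 CPM (log2 fold change 1.29 ± 0.26 SE, adjusted p = 0.00116). So with the same tract 1 fell and the other rose, in groups that did not overlap. RPS21 stood at 3583, 2513 and 1976 and 1026, 1391 and 909 CPM (log2 fold change -1.28 ± 0.26 SE, adjusted p = 0.00128). EEF2, the translocase of elongation, stood at 435, 418 and 303 and 1406, 1186 and 1018 CPM (log2 fold change 1.64 ± 0.22 SE, adjusted p = 6.88e-05). RPS6, the ribosomal target of S6 kinase, stood at 2399, 2329 and 1895 and 2286, 2582 and 1779 CPM and did not pass (log2 fold change 0.01 ± 0.22 SE, adjusted p = 0.985). EIF4B, a cofactor of the initiation helicase, rose (1.27).

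Of 79 cytosolic ribosomal protein genes, 5 rose, 28 fell and 46 did not pass, with a median of -0.45. Their summed share of the library was 12.3, 11.4 and 10.2% in the vehicle libraries and 9.06, 9.07 and 7.32% in the sorafenib libraries, means of 11.3 ± 1.05% and 8.48 ± 1.01% (SD, n = 3). The ranges did not overlap, and the exact two-sided permutation p was 0.1, the smallest that 3 against 3 allows. The count of falls rested on the setting, from 12 without sorafenib replicate 3 and 16 without sorafenib replicate 1 to 49 with upper quartile scaling. RPS26 had the smallest p among the falls (log2 fold change -1.75 ± 0.21 SE, adjusted p = 2.89e-05). The risers were RPL3 (1.25), RPL4 (1.07), RPS4X (0.79), RPS2 (0.79) and RPL11 (0.73), and RPL11 did not pass without vehicle replicate 2 (adjusted p = 0.0666) or sorafenib replicate 2 (adjusted p = 0.0755). With all 12 libraries in the fit RPS4X, RPS2 and RPL11 did not pass (adjusted p from 0.136 to 0.268). How reads shared with processed copies of these genes were assigned is not known here, so single ribosomal protein and EEF1A1 values carry that uncertainty.

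Initiation factors moved the other way, 20 of 35 rising and 1 falling (median 0.68). EIF3A, the largest subunit of the eIF3 scaffold, stood at 141, 99.4 and 109 CPM with vehicle and 457, 376 and 424 CPM with sorafenib (log2 fold change 1.84 ± 0.21 SE, adjusted p = 1.69e-05). EIF4G1, the scaffold of the cap-binding complex, stood at 119, 171 and 129 and 508, 404 and 419 CPM (log2 fold change 1.67 ± 0.21 SE, adjusted p = 4.04e-05). Of the eIF2B exchange factor, EIF2B4 (1.52) and EIF2B3 (1.42) rose and EIF2B1 fell (-0.76), though not without sorafenib replicate 3 (adjusted p = 0.0601). EIF3C has a near-identical copy and its value is uncertain. Among 12 elongation and termination factors, 6 rose, including EEF1G (1.60) and the release factor GSPT1 (1.35), and 2 fell, EEF1E1, an auxiliary of the synthetase complex (-1.45), and EIF5A, the hypusine-bearing factor (-0.60). EIF5A did not pass without sorafenib replicate 1 (adjusted p = 0.117) or 3 (adjusted p = 0.0771).

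In the mTORC1 list 6 of 25 genes rose and 8 fell, against 29.7% and 24.4% of all genes tested. The kinase MTOR (1.67), its inhibitor TSC2 (1.56) and the helicase inhibitor PDCD4 (1.06) rose. EIF4EBP1, the repressor of cap binding, stood at 185, 188 and 137 CPM with vehicle and 74.9, 69.8 and 89.0 CPM with sorafenib (log2 fold change -1.12 ± 0.20 SE, adjusted p = 5.31e-04), and AKT1S1 (-1.49) and the Ragulator subunit LAMTOR1 (-1.15) fell. The factors that build ribosomes rose, 43 of 55 against 5 that fell, 3 without sorafenib replicate 1 or 2 (median 1.10). NCL, nucleolin, stood at 345, 334 and 322 and 2215, 1875 and 1629 CPM (log2 fold change 2.51 ± 0.21 SE, adjusted p = 3.28e-06). NOC2L (2.62), NOLC1 (2.34) and RRP12 (2.11) rose, and the small H/ACA proteins NHP2 (-1.48) and NOP10 (-1.13) fell.

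The secreted products of the hepatocyte took a larger share of polysomes after sorafenib. The 90 secreted liver genes on the lists held 3.26, 3.32 and 1.81% of the vehicle libraries and 5.62, 6.69 and 5.56% of the sorafenib libraries, means of 2.80 ± 0.855% and 5.96 ± 0.637% (SD, n = 3; exact permutation p = 0.1). ALB, serum albumin, stood at 2025, 1633 and 881 CPM with vehicle and 8347, 10326 and 7419.6 CPM with sorafenib (log2 fold change 2.52 ± 0.31 SE, adjusted p = 3.22e-05). AFP, alpha-fetoprotein, stood at 1271, 837 and 222 and 4045, 6801 and 5118 CPM (log2 fold change 2.78 ± 0.47 SE, adjusted p = 3.56e-04). Vehicle replicate 3 was the lowest library for both, and the ranges stayed apart.

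Of 20 fibrinogen and coagulation genes tested, 15 rose and none fell (median 2.01). F2, prothrombin, stood at 135, 147 and 104 CPM with vehicle and 911, 892 and 759 CPM with sorafenib (log2 fold change 2.73 ± 0.22 SE, adjusted p = 3.28e-06). The 3 fibrinogen chains rose together, FGA by 3.11, FGG by 2.68 and FGB by 2.83 on the log2 scale. Of 16 complement genes tested, out of 21 listed, 13 rose and none fell, with a median of 2.51. C3, the central component, stood at 211, 291 and 114 and 1750.3, 1812 and 1496 CPM (log2 fold change 3.04 ± 0.31 SE, adjusted p = 8.55e-06). CFI, the protease that inactivates C3b (2.85), C2 (2.61) and CFB (2.74) also rose. The value of C4A is uncertain because of its near-identical copy.

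Among 25 plasma carriers, protease inhibitors and acute-phase genes tested, 20 rose and 1 fell (median 1.95). ITIH2, a hyaluronan-binding inhibitor heavy chain, stood at 63.6, 83.1 and 54.9 CPM with vehicle and 594, 689.8 and 563 CPM with sorafenib (log2 fold change 3.20 ± 0.22 SE, adjusted p = 2.75e-06). TF, transferrin, stood at 843, 749 and 436 and 4689.9, 4808 and 4306 CPM (log2 fold change 2.77 ± 0.27 SE, adjusted p = 7.18e-06). TTR, the small thyroxine carrier transthyretin, was the member that fell, from 209, 146 and 105 to 86.2, 81.8 and 84.4 CPM (log2 fold change -0.87 ± 0.24 SE, adjusted p = 0.00764). Apolipoproteins divided, 6 of 15 rising and 3 falling, against 29.7% and 24.4% of all genes tested. APOE, a ligand of lipoprotein receptors, stood at 1301, 1648 and 897 and 5999, 6776 and 4703 CPM (log2 fold change 2.18 ± 0.27 SE, adjusted p = 3.57e-05). APOA2, a small protein of HDL, stood at 10624, 9852 and 4159.7 and 3398, 3067 and 3436 CPM (log2 fold change -1.31 ± 0.31 SE, adjusted p = 0.00332). APOC1 (-0.83) and APOC2 (-1.05) fell too, and MTTP, which loads lipid onto apolipoprotein B, rose (2.04).

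The path that those proteins take was uneven. Of 24 ER chaperones and folding enzymes, 15 rose and 4 fell. HSPA5, the BiP chaperone, stood at 209, 214 and 100.3 CPM with vehicle and 840.1, 1087 and 831 CPM with sorafenib (log2 fold change 2.40 ± 0.28 SE, adjusted p = 2.52e-05). PDIA3 (2.51), PDIA4 (2.49), P4HB (2.01), HYOU1 (2.26) and CALR (1.95) rose with it. The members that fell, MANF (-1.09), SDF2L1 (-0.98), FKBP2 (-0.92) and XBP1, the transcription factor of the IRE1 arm (-0.60), include genes that ER stress is likewise known to induce. XBP1 did not pass without vehicle replicate 1 or 2 or sorafenib replicate 2 or 3 (adjusted p from 0.0737 to 0.206). The translocon and glycosylation list split 11 against 11 of 30. SEC61A1, the channel, stood at 87.4, 91.9 and 78.9 and 271, 276 and 262 CPM (log2 fold change 1.65 ± 0.18 SE, adjusted p = 1.58e-05). SEC61G, a single-span subunit of the same channel, stood at 569, 439.8 and 372 and 131, 169 and 141 CPM (log2 fold change -1.65 ± 0.22 SE, adjusted p = 5.39e-05). STT3A, the catalytic subunit of N-glycosylation, rose (2.56).

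In ER-associated degradation 6 of 19 tested genes rose and 4 fell, close to the 29.7% and 24.4% of all genes tested. Only 3 rose without vehicle replicate 2, 2 fell without sorafenib replicate 1 or 3, and 7 fell with RLE size factors. OS9, a lectin for misfolded glycoproteins (3.07), VCP, the extracting ATPase (2.27), and SEL1L (1.44) rose, and EDEM1, a mannosidase-like factor (-1.12), and the conjugating enzyme UBE2G2 (-1.32) fell. Of 26 vesicle coat and cargo receptor genes 13 rose and 2 fell, 8 with upper quartile scaling and 0 without sorafenib replicate 1 or 3. The rises included the coatomer subunits ARCN1 (2.49), COPG1 (2.46) and COPB1 (2.29).

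Of 13 mitochondrially encoded mRNAs, 12 fell and none rose (median -1.70). MT-CYB, cytochrome b, stood at 988, 283 and 307 CPM with vehicle and 46.6, 119 and 64.7 CPM with sorafenib (log2 fold change -2.78 ± 0.46 SE, adjusted p = 3.11e-04). MT-CO1 stood at 4222, 1738 and 2687 and 1245, 2346 and 1653 CPM and was the member that did not pass (log2 fold change -0.72 ± 0.32 SE, adjusted p = 0.0702), although it did at -1.02 without vehicle replicate 2 (adjusted p = 0.0228) and at -0.97 without sorafenib replicate 2 (adjusted p = 0.0390), and also in DESeq2 (adjusted p = 0.0221) and with upper quartile scaling (adjusted p = 0.0224). Vehicle replicate 1 was the highest and sorafenib replicate 2 the highest of its group for both. As a share of the library the 13 mRNAs held 0.883, 0.422 and 0.554% with vehicle and 0.187, 0.370 and 0.241% with sorafenib (exact permutation p = 0.1). Mitochondrial ribosomes are not cytosolic polysomes, so these reads show what sedimented with the polysome peaks. MT-ND6 lies on the opposite strand from most mitochondrial genes, and the use of strand in counting is not known here. Of 15 mitochondrial tRNA genes tested, 14 fell, with a median of -2.71.

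The nuclear genes of respiration fell in the main, 26 of 38 complex I genes against 6 that rose (median -0.86), and 28 of 38 genes of complexes II to V against 5 (median -1.0). NDUFB3, a small membrane subunit, stood at 511, 588 and 722 CPM with vehicle and 161, 219 and 132 CPM with sorafenib (log2 fold change -1.83 ± 0.23 SE, adjusted p = 4.55e-05). UQCR11, a small subunit of complex III, stood at 609, 524 and 499.5 and 188, 198 and 166 CPM (log2 fold change -1.56 ± 0.19 SE, adjusted p = 3.37e-05). The members that rose included catalytic and core subunits. SDHA, the flavoprotein of succinate dehydrogenase, stood at 79.6, 49.3 and 48.6 and 404, 389 and 394 CPM (log2 fold change 2.74 ± 0.23 SE, adjusted p = 3.28e-06). ATP5F1A (2.33) and ATP5F1B (1.91) of ATP synthase, NDUFS1 (1.50) of complex I, and UQCRC1 (1.62) and UQCRC2 (1.69) of complex III rose.

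Mitochondrial ribosomal proteins fell in 40 of 77 cases and rose in 9 (median -0.47), MRPL12 (-1.40) and MRPL36 (-1.96) among the falls and MRPS30 (1.68) among the rises. In protein import 15 of 30 fell and 5 rose, with the 6 small chaperones of the intermembrane space, TIMM8A to TIMM13, all falling (TIMM13 not without vehicle replicate 2 or any 1 sorafenib library, adjusted p from 0.0866 to 0.159) and the receptor TOMM70 (1.33) and outer membrane insertase SAMM50 (1.78) rising. The matrix chaperonin showed both directions in its pair. HSPD1, the large ring subunit, stood at 1285, 1095 and 1012 CPM with vehicle and 4271, 5107 and 3953 CPM with sorafenib (log2 fold change 1.97 ± 0.22 SE, adjusted p = 1.87e-05). HSPE1, its small lid, which is transcribed from a shared promoter region, stood at 2581, 2466 and 2160.1 and 491, 1003 and 525 CPM (log2 fold change -1.84 ± 0.28 SE, adjusted p = 1.55e-04).

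Central carbon metabolism rose. Of 21 TCA cycle and pyruvate dehydrogenase genes tested, 19 rose and none fell (median 1.35), with DLD (2.74), PC, pyruvate carboxylase (2.50), and FH (1.83) as examples. Of 17 glycolytic genes, 14 rose and none fell (median 1.66). PKM, pyruvate kinase, stood at 95.4, 77.7 and 119 CPM with vehicle and 521, 459 and 504 CPM with sorafenib (log2 fold change 2.34 ± 0.21 SE, adjusted p = 4.80e-06). HK2, a hexokinase low in normal liver, rose as well (2.00), as did ENO1 (2.31) and LDHA (1.66).

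Genes of fat synthesis and of fat oxidation rose in part. FASN, fatty acid synthase, stood at 43.1, 69.7 and 37.7 CPM with vehicle and 283, 317 and 326 CPM with sorafenib (log2 fold change 2.63 ± 0.24 SE, adjusted p = 5.71e-06). ACLY (2.29) and their regulator SREBF1 (2.14) rose, within 9 of 13 synthesis genes. HADHA, of the trifunctional oxidation complex (2.45), rose within 12 of 20 oxidation genes, against 2 that fell. In the cholesterol list 9 of 24 rose, 14 without vehicle replicate 1. HMGCS1, which makes the HMG-CoA of cholesterol synthesis, stood at 58.8, 30.3 and 15.3 CPM with vehicle and 117, 222 and 112 CPM with sorafenib (log2 fold change 2.11 ± 0.41 SE, adjusted p = 8.24e-04), and sorafenib replicate 2 was its highest library.

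Redox and iron genes are of interest for sorafenib, which is known to block cystine uptake. Of 23 NRF2 antioxidant genes 17 rose and 2 fell. NFE2L2, NRF2 itself, stood at 235, 152 and 162 CPM with vehicle and 432, 486 and 482 CPM with sorafenib (log2 fold change 1.35 ± 0.21 SE, adjusted p = 2.04e-04). PGD, of the pentose phosphate pathway (2.27), and NQO1, a quinone reductase (1.06), rose, while HMOX1 did not pass (log2 fold change 0.32 ± 0.20 SE, adjusted p = 0.198) and thioredoxin, TXN, fell (-0.76). TFRC, the transferrin receptor, stood at 89.0, 57.2 and 67.2 and 278, 361 and 313 CPM (log2 fold change 2.15 ± 0.22 SE, adjusted p = 8.67e-06). ACO1, the iron-sensing aconitase (2.90), NCOA4, the ferritin cargo receptor (1.84), ACSL4, an enzyme that promotes ferroptosis (2.10), and the ferritins FTH1 (0.77) and FTL (0.80) rose. The ferritin calls were lost in 9 of 17 alternatives each, among them the fits without vehicle replicate 3 (0.44 for FTH1 and 0.46 for FTL). GPX4, the peroxidase that holds ferroptosis back, stood at 1206, 958 and 686 and 529.8, 622 and 504 CPM (log2 fold change -0.78 ± 0.23 SE, adjusted p = 0.0115), and just missed without sorafenib replicate 1 (adjusted p = 0.0524) or 3 (adjusted p = 0.0555).

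Among 21 drug metabolism and efflux genes tested, of 31 listed, 10 rose and 1 fell. POR, the reductase of all microsomal cytochromes P450 (2.81), SULT2A1 (2.22) and the efflux pump ABCB1 (1.59) rose. Lysosomal genes rose in 21 of 34 cases and fell in 4. PSAP, prosaposin, stood at 158, 141 and 109.8 CPM with vehicle and 907, 743 and 892 CPM with sorafenib (log2 fold change 2.64 ± 0.22 SE, adjusted p = 3.28e-06). Cathepsin CTSD (1.93) and the membrane proteins LAMP1 (1.94) and LAMP2 (1.84) rose, and the small proton pump subunits ATP6V0E1 (-0.99) and ATP6V0C (-0.85) fell. Of 28 autophagy genes 11 rose and 7 fell, against 29.7% and 24.4% of all genes tested. The receptors NBR1 (1.69) and TAX1BP1 (2.00) rose, and GABARAPL2 (-1.12) and WIPI1 (-1.40) fell.

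Of 21 cytosolic heat shock genes 10 rose and 3 fell. HSP90AB1, a major HSP90, stood at 1002, 1003 and 732 CPM with vehicle and 4965, 4793 and 3819 CPM with sorafenib (log2 fold change 2.31 ± 0.24 SE, adjusted p = 8.67e-06). HSPA8, the constitutive HSC70, stood at 784, 621 and 434 and 279.7, 356 and 193 CPM (log2 fold change -1.15 ± 0.27 SE, adjusted p = 0.00282). So 2 abundant partners of the same folding pathway moved in opposite directions. HSPA4, an exchange factor for HSP70, rose (2.48) and HSPB1, a small heat shock protein, fell (-0.98).

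The kinase pathway that sorafenib acts on changed modestly. BRAF rose (log2 fold change 0.94 ± 0.25 SE, adjusted p = 0.00687), MAP2K1 rose (0.89) and MAP2K2 fell (-0.82). In the wider list of kinases and receptors 10 of 17 rose and 3 fell, but only 5 rose with upper quartile scaling, with all 12 libraries, and without sorafenib replicate 3. Of 18 ERK output genes 4 rose and 4 fell, not above the 29.7% and 24.4% of all genes tested. The rises came to 7 without vehicle replicate 3, and the falls to 2 without sorafenib replicate 2. DUSP6, the ERK phosphatase, stood at 32.1, 26.5 and 12.4 CPM with vehicle and 14.9, 6.71 and 23.0 CPM with sorafenib and did not pass (log2 fold change -0.67 ± 0.41 SE, adjusted p = 0.177), although it did at -1.02 without vehicle replicate 3 and at -1.11 without sorafenib replicate 3. ETV4, an ETS factor, fell (log2 fold change -1.60 ± 0.28 SE, adjusted p = 4.13e-04) and EPHA2, a receptor kinase, rose (log2 fold change 2.25 ± 0.36 SE, adjusted p = 2.51e-04).

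JUN stood at 7.08, 6.67 and 13.1 CPM with vehicle and 130.3, 84.6 and 124 CPM with sorafenib (log2 fold change 3.63 ± 0.30 SE, adjusted p = 3.28e-06). JUNB stood at 9.20, 4.95 and 13.5 and 74.5, 108 and 55.9 CPM (log2 fold change 3.06 ± 0.33 SE, adjusted p = 1.47e-05). MYC stood at 39.5, 27.3 and 24.1 and 117, 66.6 and 129 CPM (log2 fold change 1.78 ± 0.28 SE, adjusted p = 1.80e-04). Its dimer partner MAX fell (-1.38), as did BTG2, an antiproliferative immediate early gene (-2.03), and FOS had too few counts to be tested. Of 18 NF-kB targets tested, 11 rose and none fell (median 1.44). NFKBIA, the inhibitor that NF-kB induces, stood at 104, 81.3 and 108 and 593, 965 and 447 CPM (log2 fold change 2.77 ± 0.28 SE, adjusted p = 8.55e-06). ICAM1, an adhesion molecule, rose (3.25), and so did NFKB2 (2.52). In contrast to the stress genes above, sorafenib replicate 2 was the highest treated library for JUNB, NFKBIA and TNFAIP3.

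Of 14 YAP-TEAD targets 10 rose and none fell, CCN1, AMOTL2 (2.66) and CCN2 (1.78) leading. With upper quartile scaling 3 of them fell. Hypoxia-inducible genes rose in 10 of 21 cases and fell in 3, against 29.7% and 24.4% of all genes tested. HIF1A stood at 20.8, 13.1 and 14.4 CPM with vehicle and 85.9, 66.2 and 88.9 CPM with sorafenib (log2 fold change 2.30 ± 0.24 SE, adjusted p = 9.17e-06), ADM rose (1.67), and the mitophagy receptor BNIP3 fell (-0.93). Of 21 interferon-induced genes 9 rose and 6 fell, 2 without sorafenib replicate 1 and 3 without sorafenib replicate 2. The transcription factor IRF1 rose (3.18), and the small membrane protein IFITM3 (-0.90) and the nuclease ISG20 (-1.49) fell.

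Of 16 BCL2 family genes tested 4 rose and 4 fell, close to the 29.7% and 24.4% of all genes tested. The rises came to 2 without vehicle replicate 1 or 2 or sorafenib replicate 1 or 3, and the falls to 7 with upper quartile scaling. MCL1, a short-lived survival protein, stood at 72.2, 82.8 and 113 CPM with vehicle and 210.3, 109 and 184 CPM with sorafenib (log2 fold change 0.91 ± 0.26 SE, adjusted p = 0.00920), with sorafenib replicate 2 inside the vehicle range, and missed the threshold with all 12 libraries in the fit (adjusted p = 0.0517). The BH3-only killer BBC3 rose (1.47), and BAX (-1.06), BAD (-1.19) and BOK (-1.18) fell. Of 21 p53 targets 5 rose and 4 fell (2 without vehicle replicate 3 or sorafenib replicate 2), not above the 29.7% and 24.4% of all genes. CDKN1A did not pass (log2 fold change -0.48 ± 0.31 SE, adjusted p = 0.206). In the insulin and IGF list, IGFBP1, a liver-secreted binding protein, stood at 159, 116 and 105 and 33.0, 15.4 and 35.1 CPM (log2 fold change -2.19 ± 0.29 SE, adjusted p = 6.52e-05), while FOXO1 (1.93) and IGF2R (1.41) rose.

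Of 41 genes of mitosis, condensin and cohesin 36 rose and 1 fell (median 1.51). TOP2A, topoisomerase II alpha, stood at 147, 84.8 and 68.3 CPM with vehicle and 479.9, 841 and 525 CPM with sorafenib (log2 fold change 2.62 ± 0.31 SE, adjusted p = 2.51e-05). SMC3, a cohesin arm, stood at 31.6, 15.1 and 23.0 and 189, 222 and 193 CPM (log2 fold change 3.09 ± 0.26 SE, adjusted p = 3.28e-06). BIRC5, the small survivin protein, was the member that fell (-1.05). Of 52 replication and nucleotide synthesis genes 27 rose and 11 fell, 7 without sorafenib replicate 1 or 3. MCM2, of the replicative helicase, stood at 23.6, 22.2 and 14.9 and 142, 139 and 129 CPM (log2 fold change 2.76 ± 0.22 SE, adjusted p = 3.28e-06), and all 6 helicase subunits rose. LIG1 rose (3.05), and the small proteins RPA3 (-1.62), POLE4 (-1.07) and GINS1 (-1.32) fell. CCND1 did not pass (log2 fold change 0.42 ± 0.23 SE, adjusted p = 0.132), except without vehicle replicate 3 (0.59, adjusted p = 0.0351). Of 21 replication-dependent histone genes tested, whose mRNAs lack a poly(A) tail, 1 rose and 4 fell, and without vehicle replicate 1 the falls came to 10. That compares with 29.7% and 24.4% of all genes tested.

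In the nucleus, 29 of 35 nuclear pore and importin genes rose and 1 fell (median 1.47). KPNB1, importin beta, stood at 101, 82.8 and 80.3 CPM with vehicle and 369, 375 and 312 CPM with sorafenib (log2 fold change 2.00 ± 0.20 SE, adjusted p = 7.20e-06). Of 30 SR and hnRNP genes 18 rose and none fell, with HNRNPU at 2.67 and HNRNPK at 2.47. Of 40 chromatin remodeller and histone methyltransferase genes 22 rose and none fell, led by CHD6 (2.58) and SMARCA4 (1.94), and 14 rose with upper quartile scaling. Of 31 decay and exosome genes 16 rose, with the helicase UPF1 at 1.98, and 4 fell, with EXOSC4 at -1.76.

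Of 35 actin and actin regulator genes 15 rose and 10 fell, 6 without sorafenib replicate 1 and 5 without sorafenib replicate 3. MYH9, a non-muscle myosin heavy chain, stood at 17.7, 40.0 and 28.8 CPM with vehicle and 201, 175 and 217 CPM with sorafenib (log2 fold change 2.79 ± 0.27 SE, adjusted p = 7.18e-06). TMSB10, a short actin-binding peptide, stood at 2576, 2752 and 5098 and 1075, 796 and 969 CPM (log2 fold change -1.88 ± 0.28 SE, adjusted p = 1.45e-04). The crosslinkers FLNA (2.37) and ACTN1 (2.69) rose, and PFN1 (-1.05) and the Arp2/3 subunit ARPC2 (-1.26) fell. Of 27 collagen, matrix and integrin genes tested 21 rose and 1 fell (median 1.59). FN1, fibronectin, stood at 391, 532 and 197 and 3204, 2700.3 and 3159.8 CPM (log2 fold change 3.02 ± 0.32 SE, adjusted p = 1.21e-05). Laminin LAMC1 (2.58) and collagen COL18A1 (3.02) rose.

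**Figure D3:**
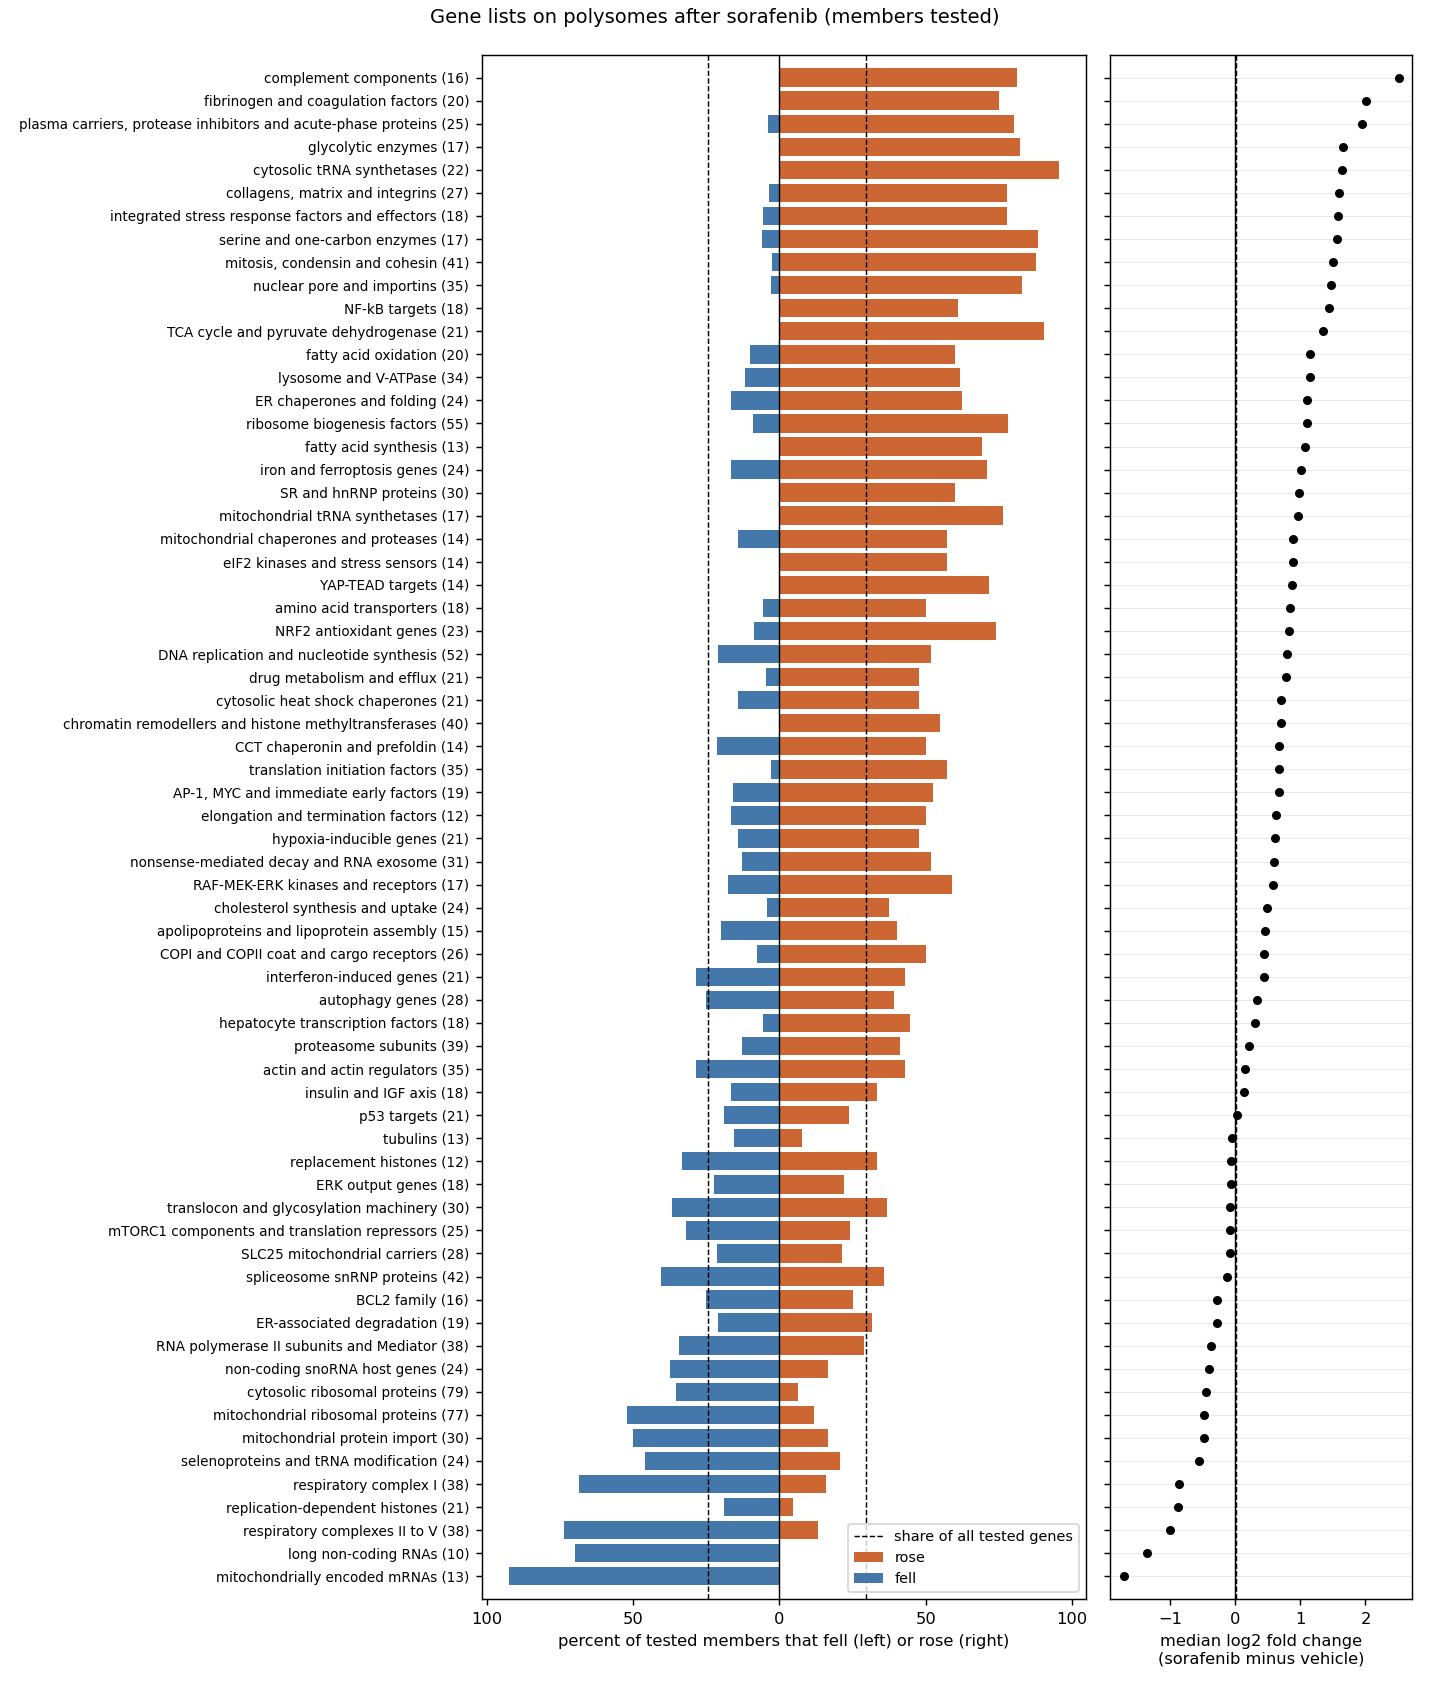
Percent of tested members that rose (orange, to the right) or fell (blue, to the left) in each of 66 gene lists, ordered by median, with the median log2 fold change (sorafenib minus vehicle) at the right and the number tested in parentheses. Dashed lines mark all tested genes, 29.7% and 24.4%; complement and coagulation lie at the top with medians of 2.51 and 2.01 and the mitochondrially encoded mRNAs at the bottom with -1.70.

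Within some complexes the subunits parted by kind. In others members of 1 group moved both ways, as in the V-ATPase proton pump, where 8 of 15 subunits rose and 4 fell. The lists were divided into these groups after their values were seen, so the counts are a description. Of 8 subunits of the CCT ring, a chaperonin for actin and tubulin, 7 rose and none fell, with CCT2 at 50.3, 45.0 and 62.0 CPM with vehicle and 305, 331 and 284 CPM with sorafenib. Of 6 prefoldin subunits, which hand clients to that ring, none rose and 3 fell, with PFDN4 at 317, 211 and 193 and 91.9, 114 and 105 CPM. Of 14 spliceosome genes (SF3A1 to SF3A3, SF3B1 to SF3B3, PRPF genes, EFTUD2 and SNRNP200) 13 rose and none fell, with SF3B2 at 2.97. Other SF3B genes were left out of this group, and in the whole spliceosome list of 42 genes 15 rose and 17 fell. Of 16 genes grouped by symbol as Sm and LSm proteins, small rings on the snRNAs, none rose and 13 fell, with SNRPD2 at -1.84. The 16 include SNRPB2, which is not a ring member. The medians of the SF3 and Sm groups were 1.99 and -1.01.

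The proteasome divided between its regulatory particle, with 14 of 17 PSMC and PSMD genes rising and none falling (median 0.97), and its core, with 1 of 17 PSMA and PSMB genes rising and 4 falling (median -0.17). PSMC2, an ATPase of the base, rose (1.93), and PSMB6, a catalytic core subunit, fell (-0.74), though not without sorafenib replicate 1 (adjusted p = 0.0616). The median of the whole proteasome list was 0.22, and it turned to -0.02 with upper quartile scaling. Of 12 RNA polymerase II subunits 2 rose, POLR2A (1.13) and POLR2B (1.08), the 2 that form the catalytic cleft, and 5 fell, including POLR2L (-1.66). Of 26 Mediator subunits 9 rose and 8 fell, from MED31 at -2.41 to MED12 at 1.80, against 29.7% and 24.4% of all genes tested.

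**Figure D4:**
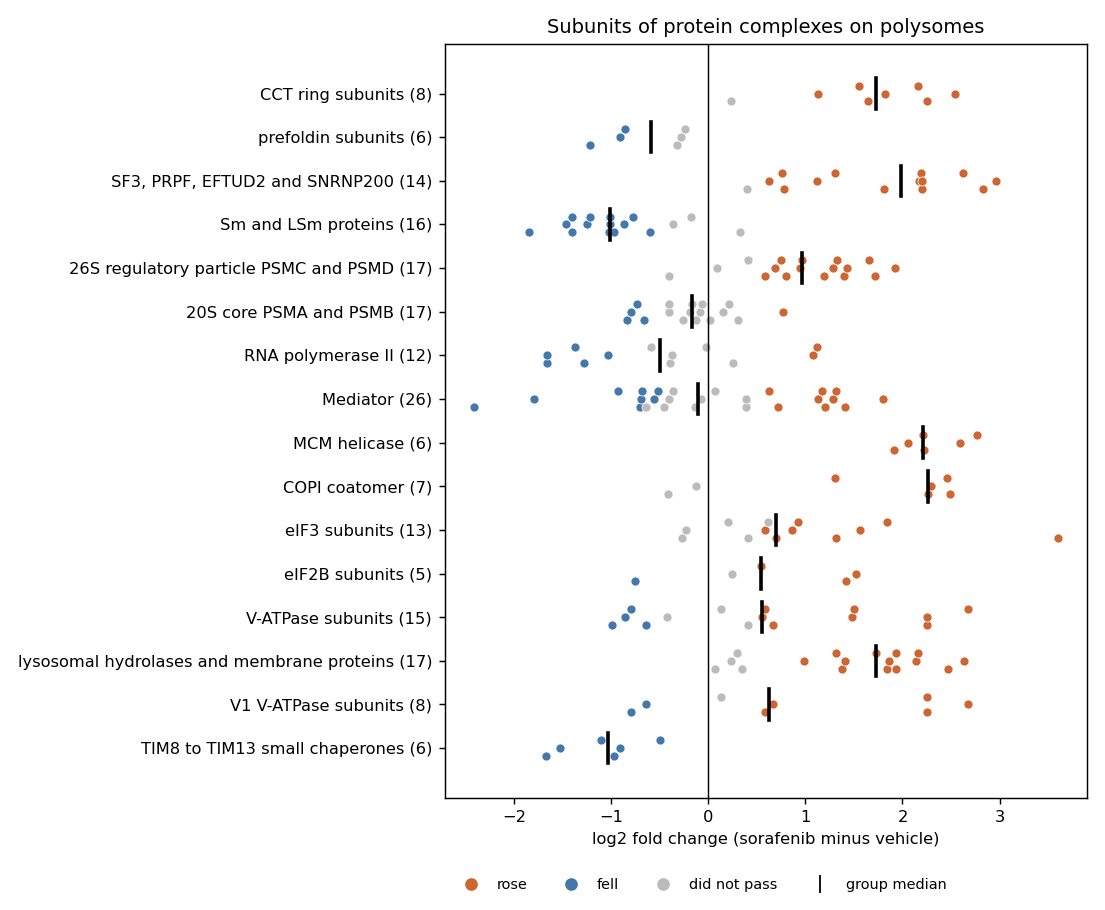
Log2 fold change (sorafenib minus vehicle) of the members of subunit groups within protein complexes, with the number tested in parentheses. Each point is a gene, orange where it rose, blue where it fell and grey where it did not pass; black ticks are medians, 1.73 for the CCT ring against -0.59 for prefoldin and 1.99 against -1.01 for the 2 spliceosome groups.

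The changes varied with the span of the gene. Gene span, the genomic length of a gene with its introns in RefSeq, was divided over tested protein-coding genes into 5 groups of equal size, a measure chosen after the data were seen. In the shortest group, up to 9.79 kb, 17.7% rose and 36.5% fell, with a median log2 fold change of -0.36. The share that rose was 27.9, 34.5 and 38.9% in the next 3 groups, and their medians were -0.06, 0.16 and 0.34. In the longest group 47.2% rose and 10.3% fell, with a median of 0.58. The difference between the longest and the shortest group was 0.94, and taken library by library against the vehicle mean it was 0.85, 0.76 and 1.05 (sorafenib replicates 1, 2 and 3). Within each of 5 groups of expression level the longest genes were also above the shortest, for instance at medians of 0.40 and -0.27 at the lowest level and 0.45 and -0.52 at the highest. The part of gene or mRNA length in the list results above was not tested. Protein length was not measured, so words on the size of single members above are background and not a result.

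**Figure D5:**
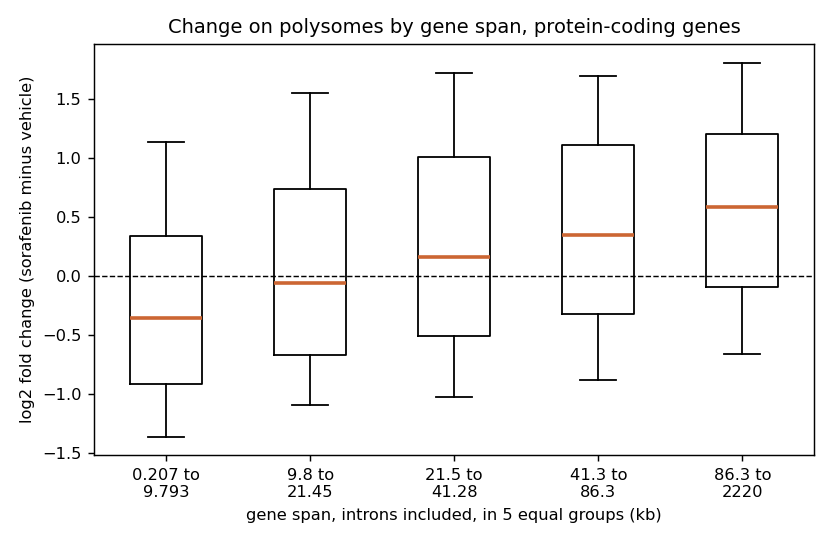
Log2 fold change (sorafenib minus vehicle) of tested protein-coding genes by group of gene span in kb, introns included. Orange lines are medians, boxes span the 25th to 75th percentile and whiskers the 10th to 90th; the medians climb from -0.36 in the shortest group to 0.58 in the longest.

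Long non-coding RNAs fell more often than they rose. Of 481 genes of RefSeq class lncRNA tested, 20 rose and 286 fell, 4.16% and 59.5%, with a median of -1.13, against 33.2% and 21.4% of 11459 protein-coding genes. Other classes varied, with 12 of 45 miRNA genes rising and 8 falling (median 0.069), 59 of 294 pseudogenes rising and 64 falling (median -0.06), and 23 of 195 transcribed pseudogenes rising and 69 falling (median -0.56). Of all genes tested 29.7% rose and 24.4% fell. The summed share of the 481 lncRNA genes was 1.34, 1.09 and 1.08% of the library with vehicle and 0.901, 0.816 and 0.833% with sorafenib (exact permutation p = 0.1). NORAD, a long RNA that binds Pumilio proteins, stood at 577, 340.4 and 317 CPM with vehicle and 112, 99.4 and 148 CPM with sorafenib (log2 fold change -1.78 ± 0.26 SE, adjusted p = 1.11e-04). OTUD6B-AS1 stood at 77.9, 66.7 and 55.0 and 6.20, 12.8 and 7.64 CPM (log2 fold change -2.90 ± 0.28 SE, adjusted p = 6.64e-06), and LINC00963 at 76.9, 179 and 56.3 and 16.9, 20.4 and 19.8 CPM (log2 fold change -2.44 ± 0.36 SE, adjusted p = 1.18e-04). The nuclear RNA NEAT1 stood at 101, 60.2 and 62.2 and 163, 59.2 and 96.9 CPM and did not pass (log2 fold change 0.51 ± 0.32 SE, adjusted p = 0.195), except without sorafenib replicate 2 (0.82, adjusted p = 0.0368). Antisense rows such as OTUD6B-AS1 and GABPB1-AS1 (-2.09) can hold reads of the overlapping gene where counting did not use strand.

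Of 24 non-coding snoRNA host genes 4 rose and 9 fell, with DANCR down (-1.54) and SNHG17 up (1.02). Outside protein-coding genes, pseudogene rows reached a log2 fold change of 5.80 without the cuts on test, level and overlap used for the ranking. Among RefSeq-matched genes that met those cuts, the largest rises were INHCAP (3.90), SMG1P3 (3.33), PDIA3P1 (2.15) and HSPD1P1 (2.10). The last 3 are copies of SMG1, PDIA3 and HSPD1, and reads of the parent genes could be assigned to them. Of 378 protein-coding zinc finger genes named ZNF, 55 rose (14.6%, against 29.7% of all genes tested) and 91 fell (24.1%, against 24.4%), with a median of -0.19. Selenoprotein and tRNA modification genes fell in 11 of 24 cases, 7 without sorafenib replicate 1 and 6 without sorafenib replicate 3, and rose in 5, with MSRB1 (-1.29) and SELENOH (-1.27) down and TXNRD1 up (0.83).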

How the data were processed

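The 12 libraries hold RNA of 2 gradient fractions of HepG2 cells, and the 6 polysome libraries were compared, 3 with sorafenib and 3 with vehicle, grouped by the submitters' titles. The authors deposited 1 table of raw read counts per gene, whole numbers that are not normalized. Per the submitters' processing notes the build was GRCh38.p12. The sources used here do not give the aligner, counter, gene annotation or strand setting. The series is described as a ribosome profiling experiment, per the labels, and the same labels describe RNA taken from whole gradient fractions.

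From the counts, rows passing edgeR's filterByExpr (minimum count 10) in the 6 libraries were kept, scaled by TMM within these libraries and tested with edgeR's quasi-likelihood test (edgeR 4.0.16, limma 3.58.1, R 4.3.3), with Benjamini-Hochberg adjustment over all 13868 genes at 0.05. CPM of genes are TMM-scaled, and summed CPM of marker lists are per library total. SE is the log2 fold change divided by the square root of the F statistic. Shares of a library were compared by an exact two-sided permutation test, and the difference between fractions by an interaction term over all 12 libraries. The test was checked on simulated counts of the same genes. It recovered 4.48% of 67 genes changed 1.5-fold, 41.8% of 67 changed 2-fold and 100% of 66 changed 4-fold. Far fewer genes were changed there than passed here, which makes the adjustment stricter there. A gene that did not pass may still have changed. Alternatives were other scalings, filters and tools (DESeq2 1.42.0, limma-voom), a replicate block, all 12 libraries in 1 fit, thinned counts and each library left out.

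Genes were named by rule: the 12 largest changes in each direction among genes that RefSeq matched as protein-coding (mean log2 CPM of at least 4, groups apart), 4 others each way, the 4 smallest p of each list with 2 against its majority, a list of genes of interest, and genes whose sequence is printed. A further 56 list members were chosen after their values were seen. The members, lists and tests were chosen with earlier results of these data known. Row names were matched to RefSeq tables of GRCh38.p14 (37283 of 57353 matched, 36210 by symbol and 1062 by synonym). The planned division by protein length was not made, and gene span took its place. Some genes that the rule names are not reported here.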

Additional observations from a re-analysis of the deposited data

Results flagged for a closer look

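The 5 largest rises and the 5 largest falls in the ranking of protein-coding genes (mean log2 CPM of at least 4, groups apart) were tested. In the test of the difference itself, 3 of the 10 differed between the polysome and the light fraction (edgeR's quasi-likelihood test of the interaction, adjusted over all genes). SLC25A25, a mitochondrial carrier, rose by 3.85 on polysomes and by 1.23 in the light fraction on the log2 scale, a difference of 2.62 (adjusted p = 7.61e-04). INHBE, the activin E subunit, rose by 4.03 and by 2.28, a difference of 1.75 (adjusted p = 0.04998). FAM217B fell by 2.82 on polysomes and by 1.40 in the light fraction, a difference of -1.42 (adjusted p = 0.00931). With TMM within each fraction these 3 genes passed too. The 10 were chosen for the size of their change on polysomes. The light libraries are shallower and less alike, so the genes that did not pass may still differ.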

How the results depend on the processing

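The count of rises kept within 1.5 times its value of 4113 under all 17 alternatives, between 3130 and 4167, and the count of falls within 1.5 times its value of 3385, between 2509 and 4592. Leaving out 1 library gave 3537 to 4129 rises and 2509 to 3468 falls. The replicate numbers are not said to mark a shared day, and deviations of same-numbered libraries correlated at -0.215, -0.0276 and 0.0172, so they were not taken as pairs; the replicate block gave 4033 rises and 3183 falls. The span difference of 0.94 stayed between 0.87 and 1.04 under its alternatives. Of 257 named genes that passed, 245 kept their call under every alternative in which they were tested, and none changed sign. Many of them were named for a small p or a large change, or after their values were seen. That choice favours calls that hold, so this count does not speak for all genes. The named genes whose sign changed had not passed, and the cause was not tested. ATF4 read -0.047 with RLE size factors and DESeq2, -0.054 with library totals only, -0.22 with upper quartile scaling, -0.077 with genes at 3 or more in mean log2 CPM, -0.087 among protein-coding genes only, -0.20 with all 12 libraries, and -0.082 to 0.15 with 1 library left out, below 0 without vehicle replicate 2 or 3 or sorafenib replicate 1. RPS6 read -0.059 with RLE and DESeq2, -0.070 with library totals only, -0.23 with upper quartile scaling, -0.0057 with limma-voom, -0.088 with genes at 3 or more in mean log2 CPM, -0.10 among protein-coding genes only, -0.0039 with the replicate block, -0.21 with all 12 libraries, -0.034 in thinned counts, and -0.13 to 0.16 with 1 library left out, below 0 without vehicle replicate 3 or sorafenib replicate 2. Of 2244 list counts under the alternatives, 2031 stayed within 1.5 times, and of the 213 others 146 belong to counts of 3 or fewer genes. Vehicle replicate 2, at 4769383 counts, sets the depth for low genes, and no total RNA, protein or second cell line was analysed here.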
